A study of Homo sapiens with 6 samples.

Results

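The genes encoding integrin and laminin subunits were followed in RKO cells, a human colon carcinoma line, with and without an intact GSK3B gene. Members were the rows of the count tables whose symbol is ITGA or ITGB followed by a digit or by D, E, L, M, V or X, or LAMA, LAMB or LAMC followed by a digit. The members reported here are 37 of the 28278 gene symbols: 18 integrin alpha, 8 integrin beta, 5 laminin alpha, 4 laminin beta and 2 laminin gamma subunits. Integrin-binding proteins (ITGB1BP1, ITGB1BP2, ITGB3BP), the integrin-like gene ITGBL1 and antisense symbols were left out. Polyadenylated RNA was sequenced in 3 libraries of GSK3B wild-type RKO cells and 3 libraries of GSK3B knockout RKO cells, with no other treatment or allele given. How GSK3B was disrupted, whether the knockout line is 1 clone, and whether each library came from its own culture are not stated, so p-values reflect the scatter among these libraries alone, and that scatter may be technical.

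Integrins are cell-surface receptors built from an alpha and a beta subunit. The alpha subunit largely sets which matrix protein is bound, and the tail of the beta subunit recruits talin, kindlin and focal adhesion proteins inside the cell. Laminins are secreted trimers of an alpha, a beta and a gamma chain that form the backbone of basement membranes, the sheets under epithelia such as that of the colon, and are bound by several of the integrins. GSK3B encodes a serine/threonine kinase that acts in Wnt signalling, metabolism and other pathways.

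GSK3B served as the check of the labels: it stood at 91.4 to 99.0 CPM (counts per 1000000, scaled by library) in wild-type libraries and at 46.0 to 47.5 CPM in knockout libraries, 48.8% of the wild-type level. Total counts ran from 32379369 to 33558362 per library. Within groups, the chi-square per degree of freedom of paired libraries was 3.11 to 9.30, the highest between wild-type replicates 1 and 3. The colon and epithelial markers KRT18, KRT8, CDX2 and VIL1 were present at means of 72.4, 29.5, 18.6 and 17.4 CPM, whereas KRT19 and KRT20 had at most 5 counts and CDH1, the gene of E-cadherin, was listed at 0. EPCAM, the remaining marker of this list, had 119, 140 and 80 counts in wild-type and 34, 34 and 37 counts in knockout libraries. The 8 fibroblast markers summed to 2.31, 3.03 and 6.07 CPM in wild-type replicates 1, 2 and 3 and to 1.03 to 1.23 CPM in the knockout libraries. Of these, PDGFRB had 53, 70 and 67 counts in wild-type and 26, 18 and 26 in knockout libraries. COL1A1 had 19, 13 and 61 counts in wild-type and 7, 10 and 12 in knockout libraries. DCN, COL1A2 and COL3A1 had 25, 23 and 18 counts in wild-type replicate 3 and 0 to 2 elsewhere. The part of the fibroblast markers in the results was not tested. Genes that dividing cells generally use, among them FBL and EEF1B2, are also listed at 0 in these tables, so a 0 was not read as absence of expression.

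Promoter windows from RefSeq on GRCh38.p14, 250 bases before to 50 after a start, matched 26 of the 37 members with 33 windows, and 16 of the 21 members that could be tested. The windows of ITGA2 and ITGA1, which encode collagen-binding alpha subunits, are shown because these genes neighbour each other on the plus strand of chromosome 5 while 1 of them was called and the other was not. ITGB5, a called beta subunit, has 3 windows with GC contents of 49.7, 59.7 and 75.7%, and the one at its GENCODE start is shown. The windows of 59.7 and 75.7% GC have starts 13734 and 14053 bases away from it. Which of the 3 starts these cells use was not tested. ITGA3, the third called member, was not among those matched. They lie at chr5:52989102-52989401 (ITGA2, plus strand), chr5:52787666-52787965 (ITGA1, plus strand) and chr3:124901369-124901668 (ITGB5, minus strand), and capitals mark a match to the searched letters.
ITGA2: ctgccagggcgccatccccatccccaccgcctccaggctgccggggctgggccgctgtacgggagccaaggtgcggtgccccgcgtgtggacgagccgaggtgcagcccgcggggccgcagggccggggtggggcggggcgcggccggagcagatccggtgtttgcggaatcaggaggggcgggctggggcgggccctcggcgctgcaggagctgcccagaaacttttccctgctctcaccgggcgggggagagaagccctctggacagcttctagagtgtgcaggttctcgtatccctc
ITGA1: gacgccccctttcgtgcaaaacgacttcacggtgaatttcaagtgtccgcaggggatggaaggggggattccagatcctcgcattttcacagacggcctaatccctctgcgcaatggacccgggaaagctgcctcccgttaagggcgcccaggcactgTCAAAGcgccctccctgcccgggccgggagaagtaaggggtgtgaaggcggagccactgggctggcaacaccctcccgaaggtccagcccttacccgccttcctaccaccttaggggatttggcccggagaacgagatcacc
ITGB5: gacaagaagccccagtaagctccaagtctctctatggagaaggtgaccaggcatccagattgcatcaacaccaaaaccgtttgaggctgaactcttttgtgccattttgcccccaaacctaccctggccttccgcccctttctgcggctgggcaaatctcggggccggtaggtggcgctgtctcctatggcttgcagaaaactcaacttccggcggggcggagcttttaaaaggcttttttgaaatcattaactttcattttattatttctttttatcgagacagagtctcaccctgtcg
The letters searched on both strands were CTTTGA, the core of TCF/LEF sites, TGANTCA, that of AP-1 sites, and CACGTG, an E-box; CTTTGA and TGANTCA can share their letters TGA. CTTTGA occurred in 6 of the 33 member windows and in 12.9% of all 35116 windows, TGANTCA in 3 and 7.71%, and CACGTG in 1 and 7.26%. The ITGA1 window holds CTTTGA on its minus strand, and the ITGA2 and ITGB5 windows hold none of the letters searched. GC content was 72.7% in the ITGA2 window, 61.7% in that of ITGA1 and 49.7% in the ITGB5 window shown, against a median of 58.7% over all windows. A match is a description of these letters and not evidence of a site.

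Of the 37 subunit genes, 21 had enough counts to be tested between the groups and 16 did not. ITGA2 rose in the knockout cells, ITGA3 and ITGB5 fell, and the other 18 tested members did not pass the threshold, an adjusted p of 0.05 over all 14409 tested genes in edgeR's quasi-likelihood test. The 3 called members are 14.3% of those tested, beside 13.5% of all tested genes called, with 6.36% called higher and 7.18% called lower. At an unadjusted p under 0.05 there were 3 members higher and 4 lower, beside 13.9% of all tested genes higher and 14.1% lower. Wild-type and knockout values did not overlap in 7 of the 21 tested members (33.3%), beside 31.3% of all tested genes. These were ITGA2, ITGA3, ITGA4, ITGAE, ITGB1, ITGB5 and LAMA1. The median log2 fold change (knockout minus wild type) was 0.00 over the members and over all tested genes, and the median size of the change was 0.10 in both. The shares of members called and not overlapping are thus near those of all genes, and the results below concern single subunits.

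**Figure D1:**
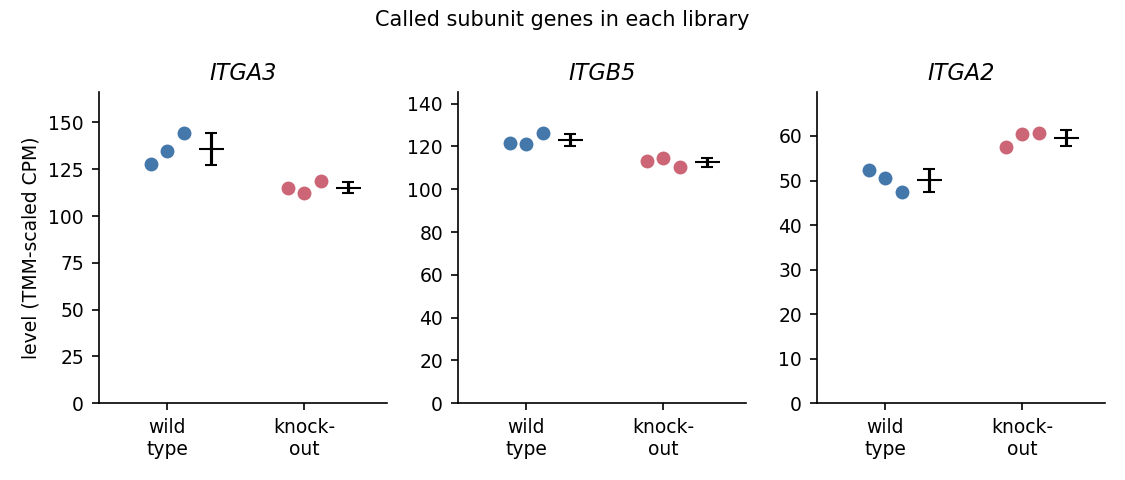
Level of the 3 called subunit genes in each library, in CPM on axes that start at 0; points are single libraries, the bar is the mean and the whiskers 1 SD (n = 3 per group). In each panel the 3 wild-type and 3 knockout points do not overlap, with the knockout points lower for ITGA3 and ITGB5 and higher for ITGA2.

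Among the collagen-binding alpha subunits ITGA2 rose, and its neighbour ITGA1 was not called. ITGA2 (ENSG00000164171.10; chromosome 5, 52989326 to 53094779 on hg38) pairs with ITGB1 in a receptor for collagens and laminins. It stood at 52.3, 50.6 and 47.3 CPM in the wild-type libraries (replicates 1 to 3, as throughout) and at 57.6, 60.6 and 60.8 CPM in those of the knockout. Every knockout library lay above every wild-type library. The log2 fold change was 0.25 ± 0.05 (SE; adjusted p = 0.00303), or 119% of wild type (95% interval 110 to 129%). In bulk RNA, a change in the share of cells that express a gene and in its RNA per cell cannot be told apart. ITGA2 passed the threshold in all 18 alternative settings tried, with log2 fold changes of 0.20 to 0.28.

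ITGA1 starts on the same strand and ends 30115 bases before ITGA2 begins. It was measured at 5.29, 5.01 and 4.50 CPM in wild-type cells and at 4.90, 4.79 and 5.11 CPM in knockout libraries, and the groups overlapped. The fold change was 0.00 ± 0.13 on the log2 scale (95% interval -0.27 to 0.27; adjusted p = 1.00), an interval that includes the change of ITGA2, and the difference between the pair was not tested. Per length of exon, ITGA2 was 23.2 to 24.7 times ITGA1 in wild-type and 27.6 to 29.7 times in knockout libraries. This ratio uses the same counts as the call of ITGA2 and is a description. On the same strand, exons of PELO share 2.56% of the ITGA1 exon length and a processed pseudogene shares 3.08%, so some ITGA1 counts may be shared. Of the other collagen receptors, ITGA10 had 0.09 to 0.84 CPM (log2 fold change 0.96 ± 0.47, adjusted p = 0.182) and ITGA11, with 5 to 14 counts, was not tested.

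Among the laminin-binding alpha subunits, ITGA3 fell and the others did not pass. ITGA3 (ENSG00000005884.17; chromosome 17, 50055968 to 50090481) pairs with ITGB1 in a receptor for epithelial laminins. Its values were 128, 135 and 145 CPM with GSK3B intact, and 115, 112 and 119 CPM in the knockout. All 3 knockout libraries were below the lowest wild-type library, wild-type replicate 1. The log2 fold change was -0.24 ± 0.05 (adjusted p = 0.00135), or 84.8% of wild type (95% interval 79.3 to 90.7%). It was called lower in all 18 alternatives, but with a correction for transcript GC content the log2 fold change moved to -0.13 (adjusted p = 0.00317).

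ITGA6, which forms laminin receptors with ITGB1 or ITGB4, was measured at 42.5, 42.9 and 38.0 CPM in wild-type cells and at 37.3, 38.9 and 35.7 CPM in knockout libraries. The groups overlapped through wild-type replicate 3, and the log2 fold change of -0.14 ± 0.06 had an adjusted p of 0.138. With the GC correction it passed, at -0.16 (adjusted p = 0.0311), and without wild-type replicate 3 it passed at -0.20 (adjusted p = 0.0209). ITGA7, a laminin receptor subunit best known from muscle, was at 20.6, 20.8 and 23.8 CPM in wild-type cells and at 20.9, 19.2 and 20.2 CPM in knockout libraries (log2 fold change -0.12 ± 0.08, adjusted p = 0.348). Its groups overlapped. The 6 muscle markers summed to 8.23 to 10.4 CPM in wild-type cells and to 8.68 to 9.20 CPM in knockout libraries. MYH11 and ACTA2 carried the sum, with means of 5.54 and 3.38 CPM. ACTA1 and DES had means of 0.182 and 0.0102 CPM, and MYH7 and MYOD1 were listed at 0.

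The alpha subunits of fibronectin and other RGD receptors did not pass. ITGA5, the alpha subunit of the main fibronectin receptor, was at 161, 160 and 176 CPM in wild-type cells and at 171, 167 and 172 CPM in knockout libraries. The values overlapped, and the log2 fold change was 0.04 ± 0.04 (adjusted p = 0.606); with the GC correction it passed at 0.09 (adjusted p = 0.0298). ITGAV, which pairs with several beta subunits and binds vitronectin and latent TGF-beta, was at 79.9, 81.1 and 76.6 CPM in wild-type cells and at 89.6, 86.1 and 78.5 CPM in knockout libraries. Knockout replicate 3 lay inside the wild-type range, and the log2 fold change was 0.10 ± 0.05 (adjusted p = 0.222). ITGA8, another RGD-binding subunit, had a total of 1 count over the 6 libraries, and ITGA2B, the platelet fibrinogen receptor subunit, a total of 3. Of 6 platelet markers, PF4, PPBP and GP9 were listed at 0, GP1BA and TUBB1 had means of 1.58 and 0.785 CPM, and the sum was 2.29 to 3.68 CPM in wild-type and 1.83 to 2.33 CPM in knockout libraries.

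ITGA4, whose receptors bind fibronectin and VCAM1, had the most negative estimate among the tested members at a low level. It stood at 1.58, 2.26 and 1.98 CPM in wild-type cells and at 1.28, 0.68 and 1.47 CPM in knockout libraries. The groups did not overlap, yet the log2 fold change of -0.76 ± 0.27 missed the threshold (adjusted p = 0.0653; 95% interval of the knockout level 40.2 to 87.2% of wild type). It passed in 6 of the 18 alternatives, among them the GC correction (adjusted p = 0.0421). The related ITGA9 had 23 counts over the wild-type and 10 over the knockout libraries and was not tested.

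The alpha subunits known from leukocytes did not pass either. ITGAX was at 16.3, 15.9 and 18.5 CPM in wild-type cells and at 16.2, 18.4 and 18.4 CPM in knockout libraries (log2 fold change 0.06 ± 0.08, adjusted p = 0.683), with overlapping groups. ITGAE, the partner of ITGB7 in a receptor for E-cadherin, was at 9.42, 7.70 and 9.37 CPM in wild-type cells and at 10.1, 9.89 and 10.5 CPM in knockout libraries. Its groups did not overlap, but the log2 fold change of 0.20 ± 0.10 did not pass (adjusted p = 0.210). Exons of HASPIN on the other strand share 6.41% of the ITGAE exon length, and the strand setting of the counting is not given in the sources used here. ITGAM reached 0.03 to 0.46 CPM (adjusted p = 0.898), and the untested ITGAL and ITGAD had at most 6 counts in a library. ITGB2, the beta subunit of the receptors that ITGAX, ITGAM, ITGAL and ITGAD form, had at most 3 counts. Of 11 leukocyte markers, 5 were listed at 0, PTPRC among them. The list summed to 307 to 318 CPM in wild-type and 421 to 440 CPM in knockout libraries, carried by LCP1 with a mean of 371 CPM, and the other 10 markers summed to 0.124 to 0.729 CPM. Their part in the results was not tested.

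Counts of the integrin beta genes were dominated by ITGB1, the common partner of most of the alpha subunits above. ITGB1 (ENSG00000150093.18; chromosome 10, 32900319 to 33005792) was at 2462, 2385 and 2169 CPM in wild-type cells and at 2483, 2502 and 2469 CPM in knockout cells. The knockout libraries were all above the wild-type libraries, with wild-type replicate 3 the lowest. The log2 fold change was 0.09 ± 0.04 and did not pass (adjusted p = 0.109); the 95% interval of the knockout level was 101 to 112% of wild type. It passed without wild-type replicate 1 (0.12, adjusted p = 0.0086) and with the length correction (0.12, adjusted p = 0.0195). The estimate fell to 0.04 without wild-type replicate 3 (adjusted p = 0.284) and with the GC correction (adjusted p = 0.211), and the adjusted p reached 0.310 without knockout replicate 2.

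ITGB5 (ENSG00000082781.11; chromosome 3, 124761948 to 124901418), which pairs with ITGAV in a vitronectin receptor, fell slightly. Wild-type values were 122, 121 and 127 CPM, and knockout values were 113, 115 and 110 CPM. The groups did not overlap. The log2 fold change was -0.13 ± 0.04 (adjusted p = 0.0455), or 91.4% of wild type (95% interval 86.0 to 97.2%). The call was lost with the GC correction (log2 fold change -0.08, adjusted p = 0.100), with the length correction, and on leaving out wild-type replicate 2 (0.102) or any of the knockout libraries (0.138, 0.105 and 0.187). The 6 other beta genes were not tested. ITGB3, ITGB4, ITGB7, ITGB2 and ITGB8 had at most 9 counts in a library, and ITGB6 was listed at 0 throughout. Exons of other genes share 51.6% of the ITGB3 and 42.1% of the ITGB7 exon length, so even these few counts may be shared.

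**Figure D2:**
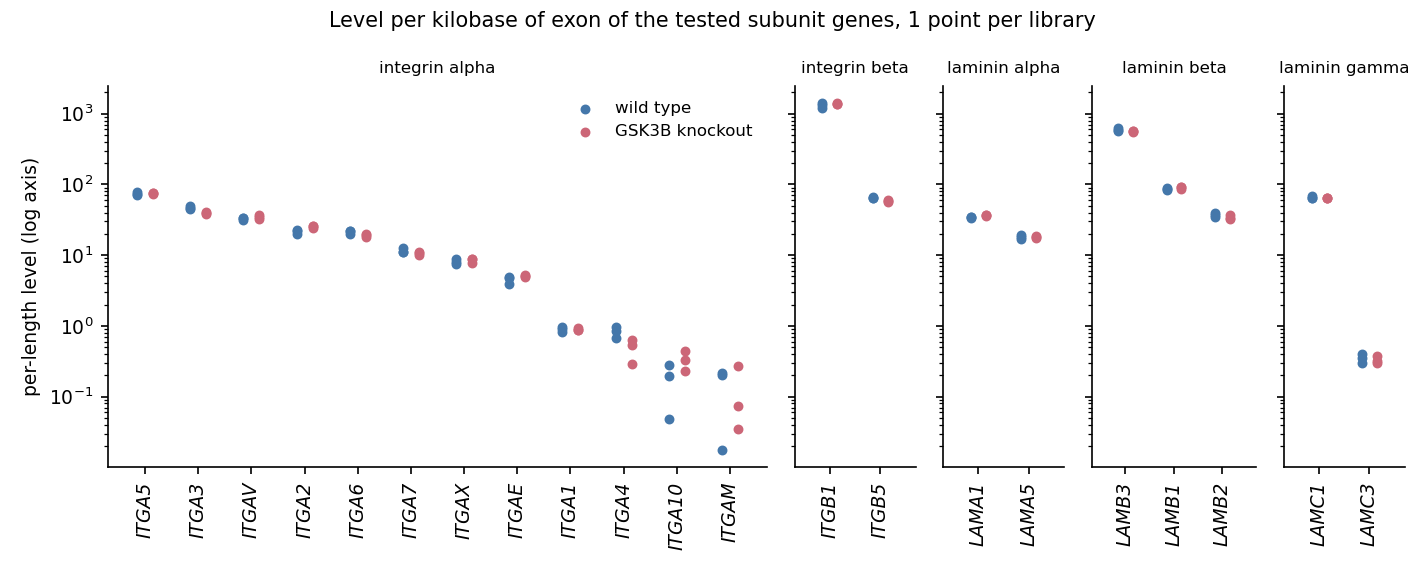
Per-length level of the 21 tested subunit genes in each library, on a log axis, ordered by mean within each chain class; each point is 1 library, wild type at left and knockout at right of each gene. ITGB1 (1216 to 1401) and LAMB3 (556 to 620) lie above all other subunits, and the order of the leading genes is alike in both groups.

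To compare subunits with one another, counts were divided by the exon length of the gene and scaled to the same total in every library, a per-length level. On this scale ITGB1 held 95.3% ± 0.40 of the integrin beta sum in wild-type and 95.9% ± 0.06 in knockout libraries (SD, n = 3). ITGB5 held 4.70% ± 0.40 and 4.05% ± 0.05. The per-length level of ITGB1 was 5.35 to 6.38 times the sum of all 18 alpha subunits.

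Among the alpha subunits ITGA5 led the per-length levels with 33.2% ± 1.08 of the alpha sum in wild-type and 34.2% ± 0.39 in knockout libraries, then ITGA3 with 21.1% ± 0.87 and 17.9% ± 0.50, and ITGAV with 14.7% ± 0.73 and 15.8% ± 1.01. ITGA2 held 9.63% ± 0.69 in wild-type and 11.5% ± 0.40 in knockout libraries. ITGA6 held 9.59% ± 0.83 and 8.71% ± 0.39. In wild-type cells ITGA2 and ITGA6 could not be ordered beyond their spread, and their order turned when the longest transcript replaced the exon union as the length; in knockout cells ITGA2 was above ITGA6 in each library on the exon-union scale. ITGA7, ITGAX and ITGAE followed with means of 5.18%, 3.63% and 2.02% in wild-type libraries, and each of the other 10 held less than ITGAE. The sum over all alpha subunits was 223 ± 3.74 in wild-type and 219 ± 1.38 in knockout libraries on the per-length scale.

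With ITGA2 higher and ITGA3 lower, the per-length ratio of ITGA2 to ITGA3 was 0.507, 0.464 and 0.405 in wild-type cells and 0.621, 0.668 and 0.635 in knockout cells. The ratio rests on the same counts as the calls of both genes and is given as a description. It also varied among the wild-type libraries, lowest in replicate 3, where ITGA2 was low and ITGA3 high.

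Laminin alpha chains were represented by LAMA1 and LAMA5, neither of which passed. LAMA1, a chain typical of embryonic basement membranes, was at 162.3, 161 and 159.9 CPM in wild-type cells and at 176, 173 and 171 CPM in knockout libraries. The groups did not overlap, and the log2 fold change of 0.10 ± 0.04 narrowly missed the threshold (adjusted p = 0.0736). With the GC correction LAMA1 passed at 0.14 (adjusted p = 9.29e-04). Antisense genes share exons with it, the largest part being 10.3% of its exon length. LAMA5, the alpha chain of most adult epithelial basement membranes, was at 70.5, 75.7 and 80.4 CPM in wild-type cells and at 78.2, 73.9 and 77.4 CPM in knockout libraries (log2 fold change 0.02 ± 0.05, adjusted p = 0.869), with overlapping groups. With the GC correction it was 0.14 (adjusted p = 0.0125). On the per-length scale LAMA1 held 65.8% ± 1.65 and LAMA5 34.2% ± 1.63 of the laminin alpha sum in wild-type, and 67.1% ± 0.70 and 32.9% ± 0.71 in knockout libraries. LAMA2 and LAMA4 had at most 4 counts, and LAMA3 was listed at 0. Neither DESeq2 nor limma-voom called a laminin alpha gene, and at an unadjusted p under 0.05 there was 1, LAMA1.

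None of the 3 tested laminin beta chains passed, in edgeR, DESeq2 or limma-voom, nor at an unadjusted p under 0.05. LAMB3 (ENSG00000196878.14; chromosome 1, 209614870 to 209652466), a laminin beta chain of epithelia, was at 785, 812 and 862 CPM in wild-type cells and at 788, 778 and 788 CPM in knockout libraries. The groups overlapped through wild-type replicate 1, and the log2 fold change was -0.06 ± 0.03 (adjusted p = 0.235; 95% interval of the knockout level 91.1 to 101% of wild type). Without wild-type replicate 1 it passed as lower (adjusted p = 0.040), and with the GC correction its sign turned, to 0.02 (adjusted p = 0.472). LAMB1, the beta chain of widespread laminins, was at 209.9, 209.3 and 201 CPM in wild-type cells and at 220.4, 207 and 225 CPM in knockout libraries (log2 fold change 0.07 ± 0.04, adjusted p = 0.239). Its groups overlapped through knockout replicate 2, and it passed with the GC correction at 0.11 (adjusted p = 0.0113). LAMB2, found in neuromuscular and kidney basement membranes, was at 69.2, 74.9 and 80.4 CPM in wild-type cells and at 74.5, 66.9 and 69.5 CPM in knockout libraries (log2 fold change -0.09 ± 0.06, adjusted p = 0.314), with overlapping groups. LAMB4 had at most 2 counts. LAMB3 held 82.8% ± 0.60 of the per-length laminin beta sum in wild-type and 81.9% ± 0.51 in knockout libraries.

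The laminin gamma chains LAMC1 and LAMC3 did not pass, in edgeR, DESeq2 or limma-voom, nor at an unadjusted p under 0.05. LAMC1, the gamma chain of most laminins, was at 160.2, 159 and 171 CPM in wild-type cells and at 161, 160.3 and 162 CPM in knockout libraries, with overlapping groups and a log2 fold change of -0.02 ± 0.04 (95% interval -0.11 to 0.06; adjusted p = 0.783). LAMC3 was at 0.67 to 0.90 CPM and overlapped as well (adjusted p = 0.924).

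Of the chains that form laminins with LAMC1, LAMA1, LAMA5, LAMB1 and LAMB2 were tested and LAMA2 and LAMA4 were not. In wild-type libraries LAMA1 had a mean of 34.4, LAMA5 17.9, LAMB1 86.1, LAMB2 37.0 and LAMC1 65.9 per-length units. LAMB3 was far higher, at 593 ± 24.2 in wild-type and 560.5 ± 4.31 in knockout libraries (SD, n = 3), and LAMA3, an alpha chain with which it assembles, was listed at 0. RNA levels say nothing of which chains were assembled or secreted.

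**Figure D3:**
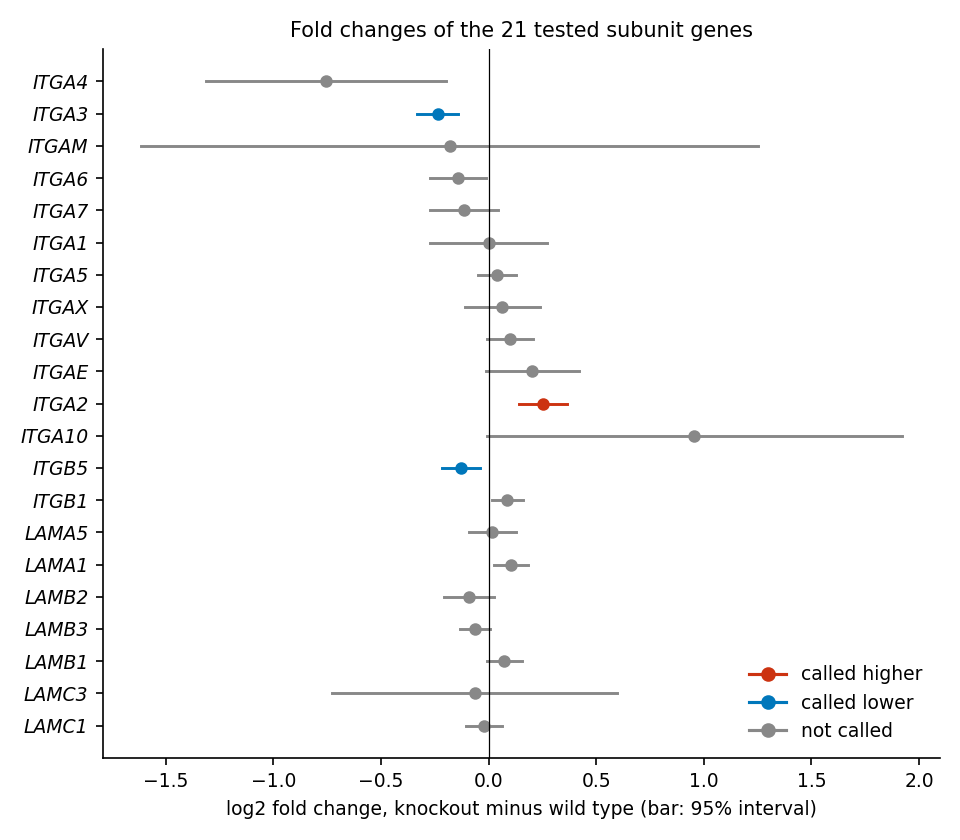
Log2 fold change (knockout minus wild type) of each of the 21 tested subunit genes, grouped by chain class, with 95% intervals from the quasi-likelihood fit; blue and red points passed the threshold. The intervals of the abundant genes are narrow, and those of ITGA4, ITGA10, ITGAM and LAMC3, each below 3 CPM, are far wider.

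Fold changes of the more abundant members went along with the GC content of their transcripts. Over the 15 members with a mean of at least 10 CPM, Pearson's r between transcript GC content and log2 fold change was -0.54, and over all 21 tested members it was -0.04. These genes share their libraries, so r is a description. ITGAV, ITGB1 and ITGA2, at 38.3 to 40.2% GC, had positive estimates, and ITGA7, LAMB2 and ITGA3, at 60.2 to 61.3% GC, negative ones; ITGA6 at 42.9% and LAMA5 at 66.4% GC departed from this order. When a GC trend was removed from each library, 5 members were called higher (ITGA2, ITGA5, LAMA1, LAMA5 and LAMB1) and 3 lower (ITGA3, ITGA4 and ITGA6), beside 21.1% of all tested genes called, 13.6% higher and 7.45% lower. ITGA2 and ITGA3 were called with and without the correction, and ITGB5 without it. Whether GC content accounts for any single member's change was not tested.

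**Figure D4:**
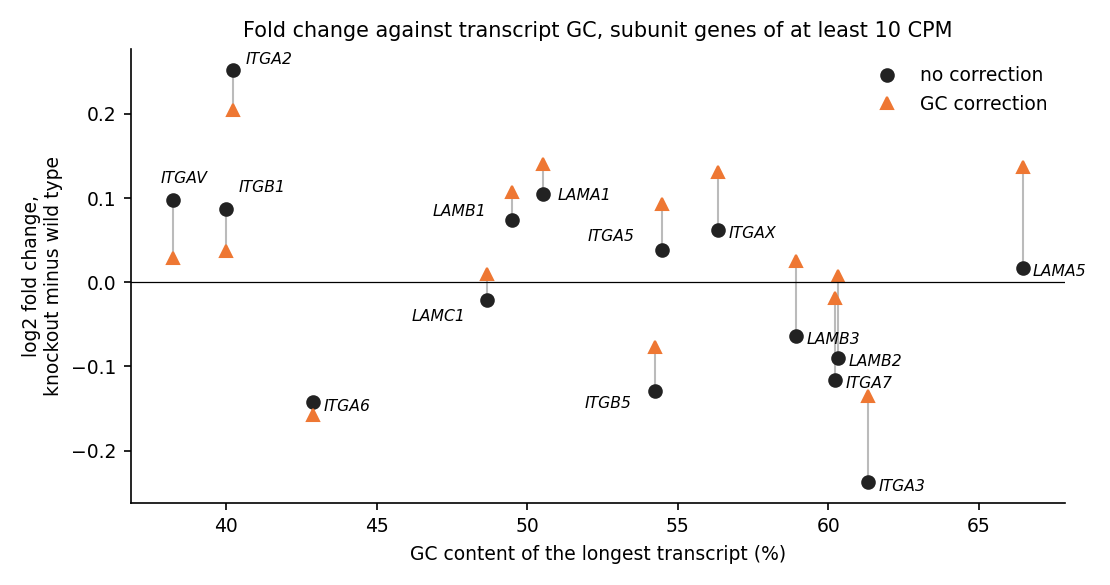
Log2 fold change (knockout minus wild type) against the GC content of the longest transcript for the 15 subunit genes that averaged 10 CPM or more; circles are the uncorrected and triangles the GC-corrected estimates of the same gene. The correction raised the estimates of all genes above 48% GC and lowered those of ITGAV, ITGB1, ITGA2 and ITGA6.

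Wild-type replicate 3 was an extreme of the wild type for the 15 members of at least 10 CPM. It was the lowest for ITGB1, ITGA2, ITGA6, ITGAV, LAMA1 and LAMB1, genes of 38.3 to 50.5% transcript GC. It was the highest for ITGA3, ITGA5, ITGA7, ITGAX, ITGB5, LAMA5, LAMB2 and LAMB3, of 54.3 to 66.4% GC, and for LAMC1, of 48.65%. How many of all tested genes had their wild-type extreme in this library was not counted. This library also had the highest fibroblast marker sum, 6.07 CPM. Neither the part of GC content nor that of the fibroblast markers was tested. Without wild-type replicate 3 the 3 calls were kept: ITGA2 at 0.21 (adjusted p = 0.00376), ITGA3 at -0.19 (adjusted p = 8.18e-04) and ITGB5 at -0.11 (adjusted p = 0.0435).

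Partner genes were read from 4 lists. Of 41 tested genes of the adhesion complex at integrin tails, 1 rose and 6 fell (17.1% called, median log2 fold change -0.03). Over all tested genes 13.5% were called, 6.36% higher and 7.18% lower. TNS1, a tensin that links beta tails to actin, fell from 15.2, 17.0 and 17.4 CPM in wild-type to 10.8, 10.8 and 12.1 CPM in knockout libraries (log2 fold change -0.56 ± 0.09, adjusted p = 1.49e-04), with no overlap. Its relative TNS4 fell from a mean of 1.41 to 0.62 CPM (-1.18 ± 0.33, adjusted p = 0.0172), and PTK2B, a kinase related to focal adhesion kinase, from 2.23 to 1.34 CPM (-0.73 ± 0.23, adjusted p = 0.0353). LIMS1, an adaptor of integrin-linked kinase, rose from 38.3 to 44.1 CPM (0.20 ± 0.06, adjusted p = 0.0225). The calls of TNS4, PTK2B and LIMS1 were each lost without 1 or more of the libraries, with adjusted p up to 0.0966, 0.140 and 0.175. PTK2, GIT1 and CIB1 fell as well and are named after their values were seen. The call of PTK2 was lost on leaving out a library (adjusted p up to 0.175), and that of GIT1 likewise (up to 0.190), in limma-voom (0.053) and with the GC correction (0.555), which moved CIB1 from -0.20 to -0.12 on the log2 scale. With the GC correction 8 genes of this list were called higher and 6 lower, beside 13.6% and 7.45% of all tested genes.

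Of 23 tested integrin ligands other than collagens and laminins, 1 rose and 4 fell (21.7% called, median -0.11), beside 13.5% of all tested genes called. With the GC correction 2 were called higher and 4 lower, beside 13.6% and 7.45% of all tested genes, and the median was -0.0144. MFGE8, a secreted RGD protein that binds ITGAV receptors, fell from 14.5, 15.5 and 16.8 CPM to 10.7, 11.3 and 10.7 CPM (-0.52 ± 0.09, adjusted p = 3.21e-04). The matricellular gene CCN1 fell (-0.48 ± 0.04, adjusted p = 8.90e-09), as did F11R, a junctional adhesion molecule (-0.30 ± 0.08, adjusted p = 0.0116; up to 0.100 without 1 library). SPP1, the gene of osteopontin, an RGD ligand, rose (0.53 ± 0.05, adjusted p = 3.09e-07). ICAM1 was the other gene called lower and is named after its value was seen. FN1, the gene of fibronectin, was at a mean of 0.99 CPM in wild-type cells and at 0.89 CPM in knockout libraries and did not pass (adjusted p = 0.823); it too is named outside the rule, as the ligand of the ITGA5 receptor.

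Of 25 tested basement membrane partners and other laminin receptors, 5 fell (20.0% called, median -0.04), beside 13.5% of all tested genes called. SDC3, a syndecan, fell from 18.2, 16.4 and 16.4 CPM in wild-type to 10.2, 9.95 and 10.5 CPM in knockout libraries (-0.73 ± 0.09, adjusted p = 2.97e-06). Its relative SDC4, a co-receptor at focal adhesions, fell from a mean of 196 to 165 CPM (-0.25 ± 0.04, adjusted p = 1.00e-04). Of the heparan sulfate proteoglycans of basement membranes, AGRN fell from 78.1 to 64.4 CPM (-0.28 ± 0.05, adjusted p = 6.34e-04) and HSPG2 from 24.8 to 19.8 CPM (-0.33 ± 0.08, adjusted p = 0.00732; up to 0.0533 without 1 library). GPC1, named after its value was seen, also fell (-0.23 ± 0.06, adjusted p = 0.00692; up to 0.0625 without 1 library). In edgeR, DESeq2 and limma-voom 0 genes of this list were called higher, and 0 were higher at an unadjusted p under 0.05. Over all tested genes, edgeR called 6.36% higher, and 13.9% were higher at an unadjusted p under 0.05. The 5 calls were kept with the GC correction, which added 1 higher, SDC1, but the log2 fold changes of GPC1, AGRN and HSPG2 moved to -0.11, -0.16 and -0.21. Over all tested genes, 13.6% were called higher and 7.45% lower with that correction.

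Of 16 tested hemidesmosome and tetraspanin partners, 2 fell (12.5% called, median -0.04), beside 13.5% of all tested genes called. CD82, a tetraspanin that associates with laminin-binding integrins, fell from a mean of 9.81 to 7.26 CPM (-0.43 ± 0.12, adjusted p = 0.0150; up to 0.0897 without 1 library). EPCAM, an epithelial adhesion molecule that associates with tetraspanins, fell from 3.43 to 1.07 CPM (-1.68 ± 0.23, adjusted p = 2.59e-05). None was called higher in edgeR, DESeq2 or limma-voom, and 1 was higher at an unadjusted p under 0.05. The shares of all tested genes were 6.36% called higher in edgeR and 13.9% higher at an unadjusted p under 0.05. With the GC correction 5 were called higher and 2 lower, beside 13.6% and 7.45% of all tested genes, at an adjusted p under 0.05. Against 7.18% of all tested genes called lower, 6 of 41, 4 of 23, 5 of 25 and 2 of 16 genes of the 4 lists were called lower, and no test of the lists was made.

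**Figure D5:**
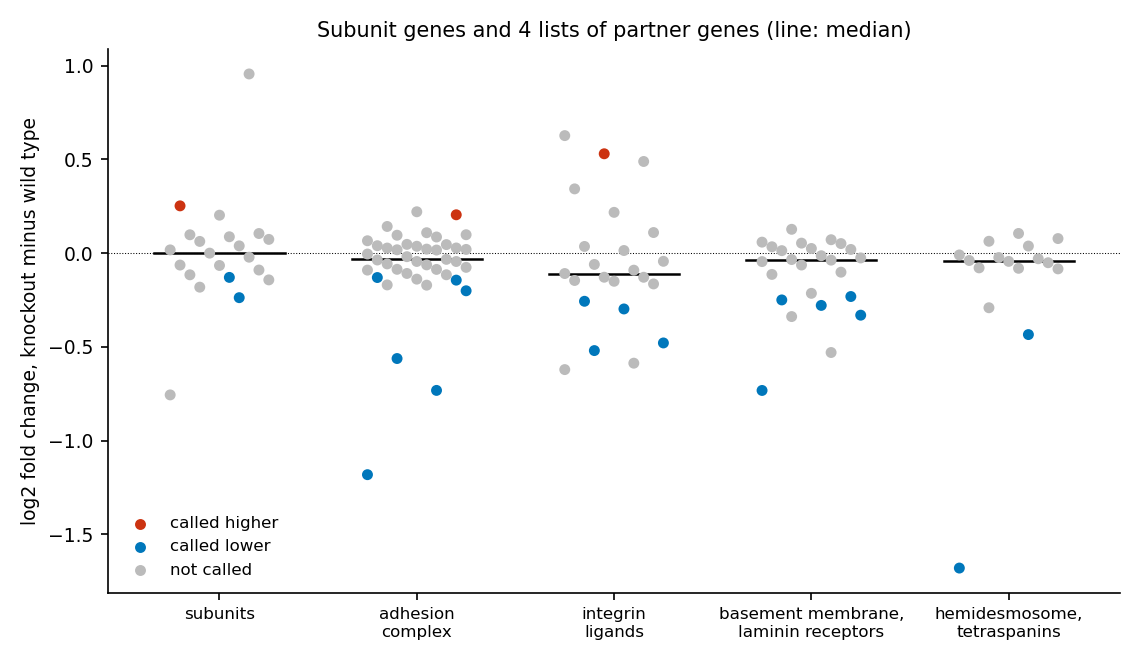
Log2 fold change (knockout minus wild type) of the 21 tested subunit genes and of the tested genes of the 4 partner lists; each point is a gene, coloured where it passed the threshold, and the horizontal line is the median of each set. Called genes of the partner lists lie mostly below 0 in this fit without GC correction, down to -1.68 for EPCAM, while the called subunits lie on both sides. With the GC correction, 8, 2, 1 and 5 genes of the 4 lists were called higher and 6, 4, 5 and 2 lower. Of all tested genes, 13.6% were called higher and 7.45% lower with that correction. The GC-corrected medians of the lists were 0.0126, -0.0144, 0.0014 and 0.0195.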

How the data were processed

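The authors deposited whole-number read counts per gene symbol, not normalized, in 1 table per library. Per the labels' protocols, libraries came from polyadenylated RNA. Per the submitters' processing notes, the build was hg38 and TopHat, limma and edgeR were used; how reads were assigned to genes, including strand and multiply matching reads, is not given in the sources used here. Groups came from the sample titles.

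From the counts, genes kept by filterByExpr (at least 10 counts, 15 in total) were tested in R 4.3.3 with edgeR 4.0.16 (TMM scaling, robust quasi-likelihood fit, group as the only term). Benjamini-Hochberg adjusted p-values cover all 14409 genes; the threshold was 0.05. Standard errors were derived from F. CPM are TMM-scaled. Exon-union lengths, coordinates, overlaps and transcript GC came from GENCODE 29 on hg38, to which 26218 of 28278 symbols matched. A floor of 3 counts corresponds to 0.0894 to 0.0927 CPM. The scripts were tested on simulated data.

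Of the symbols that match the rule for members, 1 is not reported here, and counts of members leave it out. The members and the partner and marker lists were chosen with earlier results of these data known. Members called, or with a mean of at least 10 CPM, have their 6 values given. From each list, up to 4 called genes with the largest change are named. Alternatives were RLE scaling, library size alone, other filters, a replicate block, no robust option, DESeq2 1.42.0, limma-voom (limma 3.58.1), corrections for GC (spline with 5 degrees of freedom) and transcript length, leaving out ribosomal RNA and identical-count genes, and leaving out each library.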

Additional observations from a re-analysis of the deposited data

How the results depend on the processing

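Members called lower numbered 2, and 1 with the transcript length correction. They numbered 3 under the GC correction, with or without the replicate block, and under each of the other filters. Leaving out 1 library gave 1 to 4. Members called higher numbered 1, with 5 under the GC correction, 5 under the GC correction with the replicate block, 3 with the length correction, and 1 to 2 without 1 library. Over all tested genes 1951 were called (917 higher, 1034 lower), 3039 with the GC correction (1965 higher), 3069 with that and the block, 2328 with the length correction (1462 higher), 1878 by library size alone (649 higher), and 950 to 2531 without 1 library, the low values being 950 without knockout replicate 2, 1072 without wild-type replicate 2, 1094 without knockout replicate 1 and 1205 without knockout replicate 3. Same-numbered libraries of the 2 groups had correlations of 0.071, -0.004 and 0.031 in their deviations from the group means. Differently numbered libraries had -0.088 to 0.06. With 3 libraries per group, these values cannot tell whether same-numbered libraries shared a batch. With the replicate number as a block, 2193 genes were called, and 1 member higher and 2 lower as before.

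Signs of log2 fold changes turned under the GC correction for LAMB2 (0.0073; 0.0067 with the block), LAMB3 (0.0247 in both), LAMC1 (0.0102; 0.0109) and LAMC3 (0.0486; 0.0478). Without 1 library the ranges were -0.0416 to 0.0142 for LAMC1, -0.166 to 0.0421 for LAMC3, -0.0341 to 0.0651 for LAMA5 and, at very low counts, -1.37 to 0.26 for ITGAM. The cause of these changes was not tested. Without 1 library, genes called lower ranged from 2 to 7 in the adhesion complex list, 3 to 6 in the ligand list, 3 to 7 in the basement membrane list and 1 to 2 in the hemidesmosome list, and the genes called higher from 0 to 4, 1 to 2, 0 to 0 and 0 to 2. At this depth, members of about 5 CPM or less, such as ITGA1, had intervals too wide to show changes of the size seen in ITGA2 or ITGA3.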

Other observations

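Symbols that resemble the subunits but are none were left out of the members. ITGB1BP1, which was tested in the adhesion complex list and not called, had 2656 to 3011 counts per library and ITGB3BP 466 to 581. LAMA5-AS1 had 14 to 34 counts, the pseudogene LAMB2P1 4 to 13, ITGB1BP2 3 to 13 and ITGB2-AS1 0 to 9. ITGA6-AS1, ITGA9-AS1 and LAMC1-AS1 had at most 4 counts, and ITGBL1 and LAMA4-AS1 were listed at 0. Among the untested subunits, ITGAD had 14 counts over the wild-type and 2 over the knockout libraries.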
